A study of Mus musculus with 16 samples.

Results

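Mature miRNAs were counted in cultured mouse neurons that carried a small hairpin RNA with 5 point mutations (shRNA_5bp), and these were set against neurons that received an empty vector (Empty_Vector). Each group had 4 libraries, so 8 of the 16 libraries of the series entered the comparison. The remaining 8 libraries came from the unmutated hairpin (shRNA, 4 libraries) and from the hairpin with 2 point mutations (shRNA_2bp, 4 libraries). They were used where hairpins were compared directly. All groups were primary cultures of mouse forebrain neurons from around birth, transduced with a lentiviral vector. The labels name no target, promoter or sequence of the hairpin, no mouse strain or age in days, and no time after transduction. They do not say whether the replicates were separate cultures or separate animals, so the p-values measure the spread between these libraries, which may be technical.

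The comparison bears on whether a hairpin alters endogenous miRNAs apart from its target, the question named in the title of the series. A small hairpin RNA resembles a miRNA precursor: both are exported from the nucleus by Exportin-5, cut by Dicer, and loaded into Argonaute proteins. A mature miRNA finds its targets mainly through its seed, bases 2 to 8 from the 5′ end, and miRNAs with the same seed form a family. Each precursor can release 2 mature arms, named 5p and 3p, of which usually the more stably loaded arm is the more abundant. Neurons are known for high levels of miR-128, miR-9, miR-124 and let-7, and for miR-132 and miR-212, which are induced by neuronal activity.

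The deposited counts covered 1978 miRNA names, and 611 of these had 0 counts in all 16 libraries. A filter on low counts left 483 that were tested, and 1495 were not. Library totals were 0.832 to 2.50 M counts (M is 1000000) with shRNA_5bp and 2.76 to 11.1 M with Empty_Vector. These ranges did not overlap (exact two-sided permutation test of the means, p = 0.0286, the smallest that 4 against 4 libraries allow), so depth moved with the group. A floor of 3 counts corresponded to 1.20 to 3.61 counts per 1 M counts (CPM) with shRNA_5bp and 0.269 to 1.09 CPM with Empty_Vector. Levels below are CPM on the scaled library totals, and floors cover counting error only. In each of the 8 libraries miR-128-3p, a neuronal miRNA, had more counts than any other. Among markers of other cells, some were at or near 0: over the 4 libraries of a group, miR-142a-3p and miR-223-3p of leukocytes had 0 counts with shRNA_5bp and 0 with Empty_Vector, miR-219a-5p of oligodendrocytes 0 and 2, and the erythroid miR-451a 6 and 5. Others were well above 0, among them the endothelial miR-126a-3p at 1099 ± 49.0 CPM with shRNA_5bp and 735 ± 52.0 CPM with Empty_Vector. The erythroid list had only miR-486a-5p and miR-486b-5p tested, which have identical counts. Their sum therefore counted the same reads under both names, at 441 CPM with shRNA_5bp and 411 CPM with Empty_Vector. The oligodendrocyte list summed to 122 CPM with shRNA_5bp and 129 CPM with Empty_Vector.

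The sequences of the miRNAs the results turn on are given first, from RefSeq on GRCm38.p6, with the seed in capitals. Of the 483 tested names, 427 had a sequence in that table. The first 6 rose and are known in neurons: the miR-7 pair, whose members were identical at 22 of 23 aligned positions, the activity-induced miR-132-3p and miR-212-3p from a shared primary transcript, miR-149-5p, and miR-129-5p.
miR-7a-5p: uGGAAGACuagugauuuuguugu
miR-7b-5p: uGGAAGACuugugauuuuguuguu
miR-132-3p: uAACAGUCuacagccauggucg
miR-212-3p: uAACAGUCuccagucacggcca
miR-149-5p: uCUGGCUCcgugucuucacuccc
miR-129-5p: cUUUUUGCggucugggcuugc
MiR-7a-5p comes from 2 loci, chr13:58392841-58392863 on the minus strand and chr7:78888295-78888317 on the plus strand, and miR-7b-5p from chr17:56243017-56243040 on the plus strand. MiR-132-3p (chr11:75173723-75173744) and miR-212-3p (chr11:75173443-75173464) lie on the plus strand.

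The next sequences show families that moved together or apart. The 4 miR-181 guides share a seed and all rose, 2 miR-344 members share a seed with miR-410-3p and all 3 rose, and let-7a-5p and let-7g-5p share a seed and moved in opposite directions, except that let-7g-5p was close to 0 with no filter on low counts (-0.0038).
miR-181a-5p: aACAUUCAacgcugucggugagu
miR-181b-5p: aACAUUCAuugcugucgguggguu
miR-181c-5p: aACAUUCAaccugucggugagu
miR-181d-5p: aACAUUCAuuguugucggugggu
miR-344d-3p: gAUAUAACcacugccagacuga
miR-344e-3p: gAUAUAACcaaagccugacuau
miR-410-3p: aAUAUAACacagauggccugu
let-7a-5p: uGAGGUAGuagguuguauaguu
let-7g-5p: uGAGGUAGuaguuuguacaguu

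The last sequences are those of prominent falls, then of 1 rise within the imprinted Dlk1-Dio3 region (miR-376b-3p), then of names that were scarce with Empty_Vector.
miR-128-3p: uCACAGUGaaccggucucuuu
miR-433-3p: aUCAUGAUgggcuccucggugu
miR-370-3p: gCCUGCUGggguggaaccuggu
miR-760-3p: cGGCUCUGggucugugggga
miR-376b-3p: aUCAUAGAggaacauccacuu
miR-690: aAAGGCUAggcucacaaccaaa
miR-1195: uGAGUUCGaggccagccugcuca
miR-5121: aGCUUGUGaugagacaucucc
miR-6481: cACUGAAAaugcuuagaug
MiR-128-3p comes from chr1:128202404-128202424 (plus strand) and chr9:112118644-112118664 (minus strand). MiR-433-3p (chr12:109591781-109591802), miR-370-3p (chr12:109618305-109618326) and miR-376b-3p (chr12:109723508-109723528) lie on the plus strand of the Dlk1-Dio3 region, and miR-760-3p lies at chr3:122293615-122293634 on the minus strand.

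With shRNA_5bp, 281 of 483 miRNAs changed (58.2%, adjusted p below 0.05 in edgeR's quasi-likelihood test). Of these 152 rose (31.5%) and 129 fell (26.7%). More than 2-fold rises were 61 (12.6%) and more than 2-fold falls 34 (7.04%). Large rises were found mostly among scarce miRNAs: 29 rose more than 4-fold (6.00%) and 5 fell more than 4-fold (1.04%). Among the 100 most abundant miRNAs, 80 changed (37 rose and 43 fell), but only 10 of them by more than 2-fold. All 4 shRNA_5bp libraries lay on the same side of all 4 Empty_Vector libraries for 243 miRNAs (50.3%), above them for 130 (26.9%) and below them for 113 (23.4%). The split between rises and falls depended on scaling. It was 216 to 81 with library totals alone, which moved the median log2 change of all miRNAs to 0.30 from 0.06, and 118 to 191 with no filter on low counts (median -0.28, 1367 tested). No miRNA that changed in the analysis given here changed in the opposite direction under either setting.

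**Figure D1:**
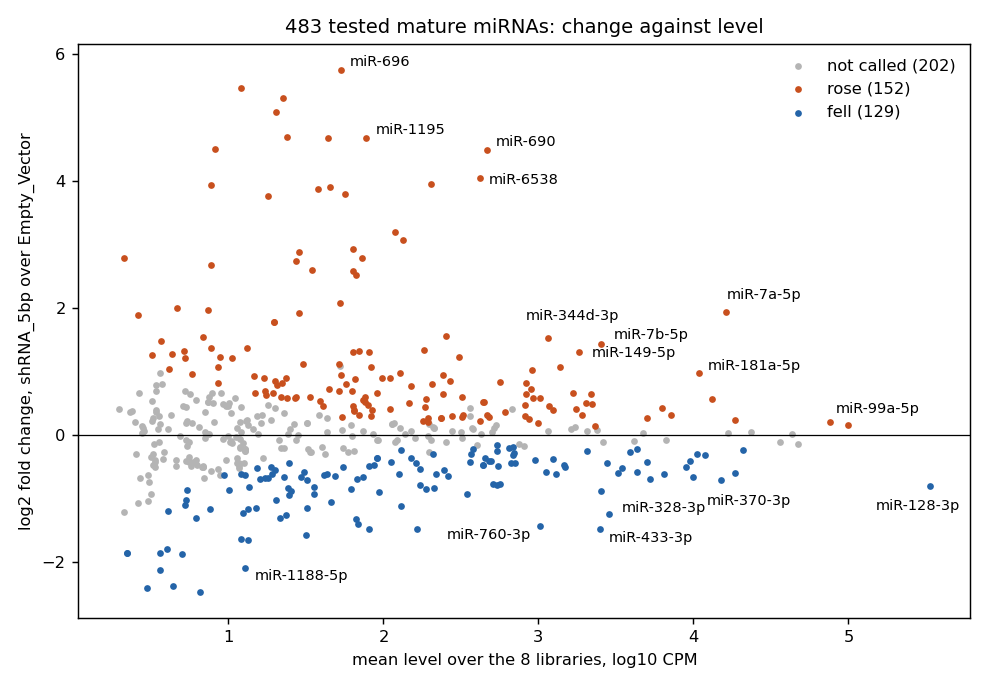
Log2 fold change of shRNA_5bp over Empty_Vector (y axis) against the mean level over 8 libraries (x axis, log10 CPM), with 1 point per tested miRNA, coloured by whether it rose (152), fell (129) or was not called (202). The largest rises lie at low levels, and miR-128-3p, the most abundant miRNA, lies below 0.

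The largest shift in the makeup of the libraries was that of miR-128-3p, a brain-enriched miRNA known to restrain neuronal excitability. Its share of all counts was 26.0 ± 1.98% with shRNA_5bp and 38.7 ± 0.750% with Empty_Vector (SD, n = 4 each). Shares were 23.96 to 28.1% in shRNA_5bp libraries and 38.1 to 39.7% in Empty_Vector libraries, without overlap (difference -12.7 percentage points, exact two-sided permutation p = 0.0286). In scaled levels, miR-128-3p had 262395, 229426, 268949 and 213052 CPM with shRNA_5bp, against 419640, 449163, 421055 and 418175 CPM with Empty_Vector (log2 change -0.81 ± 0.0652 SE, adjusted p = 1.42e-11). A fall in a share can stand for fewer cells of a type, for less RNA per cell, or for more counts of other miRNAs. These cannot be told apart in bulk samples. The opposite arm miR-128-2-5p fell as well, to 44.2 ± 5.42 CPM with shRNA_5bp against 79.3 ± 12.4 CPM with Empty_Vector, whereas miR-128-1-5p of the other locus did not pass the test (0.69 ± 0.307, adjusted p = 0.0577).

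The 10 most abundant miRNAs together held 67.5 ± 1.03% of counts with shRNA_5bp and 73.2 ± 0.262% with Empty_Vector. MiR-99a-5p gained the largest share, at 11.2 ± 0.453% with shRNA_5bp against 8.57 ± 0.567% with Empty_Vector. MiR-9-5p, a regulator of neurogenesis, followed with 8.79 ± 0.369% with shRNA_5bp against 6.45 ± 0.0825% with Empty_Vector. In scaled levels these 2 gains were small. MiR-99a-5p changed by 0.15 ± 0.0482 on the log2 scale (adjusted p = 0.00881) and miR-9-5p by 0.20 ± 0.0467 (adjusted p = 0.000427), and both signs turned with no filter on low counts (-0.084 and -0.028). Gains of share that came with a larger rise in level included those of miR-7a-5p, at 2.77 ± 0.197% with shRNA_5bp against 0.611 ± 0.0573% with Empty_Vector,, of miR-181a-5p, at 1.53 ± 0.0325% with shRNA_5bp against 0.661 ± 0.0528% with Empty_Vector, and of miR-129-5p, at 1.70 ± 0.116% with shRNA_5bp against 0.965 ± 0.0377% with Empty_Vector. After miR-128-3p, the largest losses of share were those of miR-370-3p (1.23% with shRNA_5bp against 1.70% with Empty_Vector) and let-7a-5p (1.59% with shRNA_5bp against 2.03% with Empty_Vector).

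Among 17 neuron-enriched miRNAs, 10 rose and 2 fell, with a median log2 change of 0.22 beside 0.06 over all tested miRNAs. For this and every list below, the shares over all tested miRNAs were 31.5% higher and 26.7% lower. MiR-7a-5p, a guide with many sites on the circular RNA Cdr1as, had 25697, 26310, 24516 and 26789 CPM with shRNA_5bp, against 5872, 7425, 6645 and 6998 CPM with Empty_Vector. MiR-7b-5p had 3734, 3905, 3479 and 3752 CPM with shRNA_5bp, against 1298, 1418, 1483 and 1309 CPM with Empty_Vector. In both cases every shRNA_5bp library was above every Empty_Vector library, by 1.94 ± 0.0624 and 1.43 ± 0.0619 on the log2 scale (adjusted p = 1.8e-20 and 1.59e-17). The opposite arms did not follow to the same degree. MiR-7a-1-3p was at 25.6 ± 4.85 CPM with shRNA_5bp and 15.5 ± 4.44 CPM with Empty_Vector with overlapping libraries (0.79 ± 0.197, adjusted p = 0.00107; 0.42, adjusted p = 0.145, with libraries thinned to equal depth). MiR-7a-2-3p did not pass the test (-0.21 ± 0.134, adjusted p = 0.188).

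MiR-149-5p, encoded in an intron of the glypican gene Gpc1, had 2644, 2677, 2522 and 2528 CPM with shRNA_5bp, against 1058, 1059, 1110 and 959 CPM with Empty_Vector (1.31 ± 0.0598, adjusted p = 5.31e-17). The groups were far apart relative to their spread. MiR-129-5p, produced from 2 loci, rose by 0.57 ± 0.0671 (adjusted p = 1.92e-08), to 15831 ± 1317 CPM with shRNA_5bp against 10638 ± 494 CPM with Empty_Vector. Its opposite arms rose further, miR-129-2-3p by 1.56 ± 0.113 and miR-129-1-3p by 1.31 ± 0.185 (adjusted p = 1.2e-11 and 1.7e-06). MiR-137-3p, linked to synaptic maturation, rose to 223 ± 18.5 CPM with shRNA_5bp against 151 ± 16 CPM with Empty_Vector (0.57 ± 0.101). MiR-138-5p, a regulator of dendritic spines, rose by 0.22 ± 0.0945 (adjusted p = 0.0489), close to the threshold.

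The 2 falls of this list were miR-128-3p and miR-218-5p. MiR-218-5p, known in motor and excitatory neurons, had 7004, 7061, 7483 and 8105 CPM with shRNA_5bp, against 8801, 10536, 10573 and 11962 CPM with Empty_Vector (-0.50 ± 0.0807, adjusted p = 1.57e-05). MiR-124-3p, the classic neuronal identity miRNA, was at 1800 ± 96.8 CPM with shRNA_5bp and 1661 ± 147 CPM with Empty_Vector, and its difference did not pass the test (0.12 ± 0.0707, adjusted p = 0.152). With no filter on low counts, 7 of the list rose and 4 fell. The list's median was then -0.01, beside -0.28 over all miRNAs tested in that setting.

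The miRNAs induced by neuronal activity rose in 5 of 7 cases, with 1 fall and a median of 0.58, beside 31.5% higher over all tested miRNAs. The count of rises was 3 after thinning, with a filter of 10 CPM, with no filter, or without the fourth shRNA_5bp library. MiR-132-3p had 1912, 2020, 1678 and 1839 CPM with shRNA_5bp, against 987, 814, 903 and 841 CPM with Empty_Vector (1.07 ± 0.0682, adjusted p = 1.05e-13). MiR-212-3p had 106, 104, 89.7 and 94.8 CPM with shRNA_5bp, against 46.6, 31.8, 42.7 and 38.8 CPM with Empty_Vector (1.32 ± 0.131, adjusted p = 9.41e-10). The libraries of the groups did not overlap for either miRNA. The other arm of the miR-212 precursor behaved differently: miR-212-5p was at 598 ± 53.2 CPM with shRNA_5bp and 694 ± 57.4 CPM with Empty_Vector (-0.21 ± 0.0761, adjusted p = 0.0199), and its sign turned with library totals alone (0.035). MiR-134-5p, a regulator of dendritic spine size, did not pass the test (0.15 ± 0.0698, adjusted p = 0.0658).

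**Figure D2:**
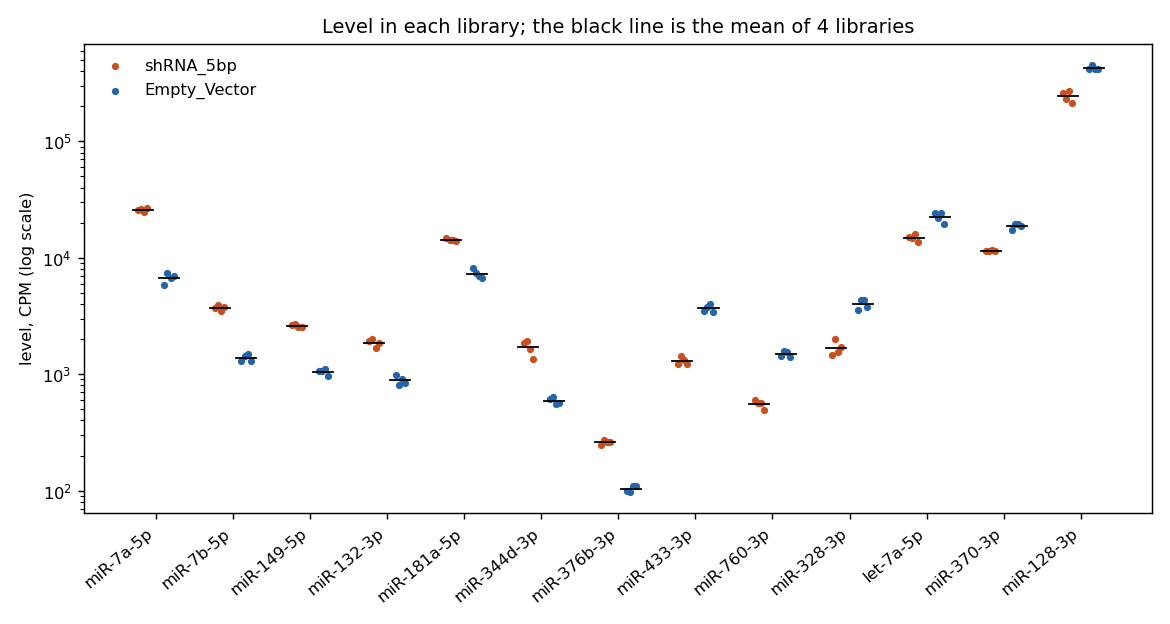
Level in CPM (log scale) of 13 miRNAs in each of 4 shRNA_5bp libraries (left of each pair) and 4 Empty_Vector libraries (right of each pair), with black lines at group means. The first 7 miRNAs are higher with shRNA_5bp and the last 6 lower, and within each pair the libraries do not overlap.

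In the miR-181 family, known in brain and lymphocytes, 5 of 8 tested arms rose and 0 fell, with a median of 0.35 (3 rose and 1 fell with no filter on low counts). All 4 guide arms sharing the seed ACAUUCA rose. MiR-181a-5p had 14833, 14272, 14205 and 13853 CPM with shRNA_5bp, against 8123, 7427, 6961 and 6657 CPM with Empty_Vector (0.97 ± 0.0655, adjusted p = 3.53e-13). MiR-181b-5p, cut from the same primary transcripts as miR-181a-5p, rose less, to 7959 ± 373 CPM with shRNA_5bp against 6391 ± 633 CPM with Empty_Vector (0.32 ± 0.0672, adjusted p = 0.000188). At the other locus miR-181c-5p rose by 0.95 ± 0.154 and its neighbour miR-181d-5p by 0.48 ± 0.0557. Summed over the 4 guides, the seed had 24903 CPM with shRNA_5bp and 15568 CPM with Empty_Vector.

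In the miR-30 family, which acts in differentiation and autophagy, 7 of 11 arms rose and 2 fell, with a median of 0.28. MiR-30a-5p rose to 2050 ± 169 CPM with shRNA_5bp against 1295 ± 62.8 CPM with Empty_Vector (0.66 ± 0.0591, adjusted p = 1.06e-10). MiR-384-5p, a neuronal miRNA with the same seed, had 69.1, 74.6, 64.4 and 75.4 CPM with shRNA_5bp, against 34.7, 31.8, 30.3 and 33.8 CPM with Empty_Vector (1.12 ± 0.137, adjusted p = 4.11e-08). MiR-30d-5p was the most abundant member and fell, to 9495 ± 419 CPM with shRNA_5bp against 11639 ± 589 CPM with Empty_Vector (-0.29 ± 0.0506, adjusted p = 1.25e-05). With library totals alone 7 members of the family rose and 0 fell, and with no filter on low counts 4 rose and 3 fell. Leaving out any of 6 single libraries (Empty_Vector 1 or 2, shRNA 4, shRNA_2bp 1, shRNA_5bp 1 or 3) left 1 fall.

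Among 11 let-7 and miR-98 guides, which restrain growth and increase as neurons mature, 2 rose and 5 fell (median -0.21), but 4 rose and 4 fell with library totals alone (median 0.04). With no filter on low counts 1 rose and 8 fell, and without the second Empty_Vector library 1 rose. Let-7a-5p had 14986, 14793, 15913 and 13530 CPM with shRNA_5bp, against 24128, 21896, 24019 and 19357 CPM with Empty_Vector (-0.59 ± 0.0685, adjusted p = 1.92e-08). Let-7d-5p, from the same cluster, fell by 0.61 (SE 0.0573, adjusted p = 3.03e-10), whereas let-7f-5p of that cluster, which also has a second locus, did not pass the test (-0.11 ± 0.0568, adjusted p = 0.0898). MiR-98-5p fell to 1026 ± 51.3 CPM with shRNA_5bp against 1574 ± 137 CPM with Empty_Vector. Let-7g-5p went the other way, at 19912 ± 967 CPM with shRNA_5bp and 17001 ± 308 CPM with Empty_Vector (0.23 ± 0.0503, adjusted p = 0.000287; -0.0038 with no filter on low counts). The highly abundant let-7c-5p and let-7i-5p did not pass the test (adjusted p = 0.076 and 0.838). Summed over 10 guides with the seed GAGGUAG, levels were 176750 CPM with shRNA_5bp and 195179 CPM with Empty_Vector.

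In the miR-99/100 and miR-125 families, whose members are encoded beside let-7 genes, 4 of 10 arms rose and 4 fell (median 0.01). Members with the same seed moved apart: miR-100-5p rose (0.27 ± 0.0553, adjusted p = 0.000153) and miR-99b-5p fell (-0.58 ± 0.055, adjusted p = 3.59e-10). MiR-99b-5p had 3345, 3657, 3558 and 3239 CPM with shRNA_5bp, against 5148, 5573, 5173 and 4767 CPM with Empty_Vector. MiR-125a-5p, from the same cluster as miR-99b, fell by 0.42 on the log2 scale (SE 0.0632), and miR-125b-5p did not pass the test (0.03 ± 0.0662, adjusted p = 0.678). Balance between rises and falls in these families turned with scaling, since 6 rose and 2 fell with library totals alone and 1 rose and 5 fell with no filter on low counts. The count of rises was 2 with DESeq2 size factors or its test, and after leaving out any of 9 single libraries.

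In the miR-17-92 cluster and its paralogs, which promote proliferation, 3 of 11 arms rose and 0 fell, beside 31.5% and 26.7% over all tested miRNAs. The rises numbered 1 without the second Empty_Vector library or with no filter on low counts, and 7 with library totals alone. MiR-20a-5p was 1 of the 3 (0.60 ± 0.167, adjusted p = 0.00276). In the miR-23/27/24 clusters 5 of 9 rose and 0 fell (3 rose with no filter on low counts), and miR-23a-3p had 114, 116, 119 and 109 CPM with shRNA_5bp, against 61.1, 39.4, 43.1 and 41.9 CPM with Empty_Vector (1.31 ± 0.141, adjusted p = 4.32e-09). Of 5 members of the p53-linked miR-34 family 1 rose, miR-34c-5p, and that call was lost without any of 4 single libraries, shRNA_5bp 3 or 4 or Empty_Vector 2 or 3. Of 4 miR-29 members 0 passed the test by edgeR, 0 had an unadjusted p below 0.05, and 0 passed by DESeq2. With library totals alone 2 of them rose, and with no filter on low counts 1 fell. In the miR-26 family 1 of 3 members rose, miR-26b-5p (0.31 on the log2 scale), but 2 rose with library totals alone, and 0 rose and 1 fell with no filter on low counts.

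A group of miRNAs matures without the Microprocessor, the Drosha complex that frees most precursors, and includes mirtrons spliced from short introns. Of 9 such miRNAs 0 rose and 6 fell (median -0.61), but 2 rose and 5 fell with library totals alone. The mirtron arm miR-877-3p had 10.2, 14.8, 10.4 and 11.6 CPM with shRNA_5bp, against 30.6, 31.6, 36.3 and 25.7 CPM with Empty_Vector (-1.31 ± 0.204, adjusted p = 2.54e-06). MiR-1981-5p fell to 398 ± 35.4 CPM with shRNA_5bp against 686 ± 21.0 CPM with Empty_Vector (-0.79 ± 0.0651, adjusted p = 2.24e-11), and the capped precursor's product miR-484 fell by 0.61 (SE 0.111). MiR-320-3p, also made from a capped precursor, did not pass the test (0.12 ± 0.0877, adjusted p = 0.265).

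The imprinted Dlk1-Dio3 region on chromosome 12 encodes the largest cluster of brain miRNAs, expressed from the maternal chromosome along with the long RNAs Meg3, Rian and Mirg. Of 79 members listed and tested, 13 rose and 40 fell (median -0.27), beside 31.5% higher and 26.7% lower over all tested miRNAs. The tested miR-666-5p, miR-666-3p and miR-3070-2-3p also lie in the region but were not listed. The counts given here leave them out. On the Meg3 side 1 of 9 rose and 6 fell, among the anti-Rtl1 miRNAs 1 of 10 rose and 6 fell, in Rian 0 of 5 rose and 3 fell, and in Mirg 11 of 55 rose and 25 fell. The counts of Mirg and anti-Rtl1 depended on scaling: with library totals alone 17 rose and 15 fell in Mirg (6 rose with no filter, and 7 after thinning), and 4 rose and 4 fell among the anti-Rtl1 miRNAs.

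Among the anti-Rtl1 miRNAs, which are complementary to the retrotransposon-derived gene Rtl1, miR-433-3p had 1231, 1443, 1329 and 1233 CPM with shRNA_5bp, against 3511, 3759, 3991 and 3449 CPM with Empty_Vector (-1.49 ± 0.0622, adjusted p = 1.03e-17). MiR-434-5p and miR-434-3p fell by 0.67 and 0.60 on the log2 scale (SE 0.0554 and 0.0567). The abundant miR-127-3p was at 19044 ± 808 CPM with shRNA_5bp and 22486 ± 2067 CPM with Empty_Vector (-0.24 ± 0.0619, adjusted p = 0.00147), and its change was 0.0046 with library totals alone. On the Meg3 side miR-770-3p fell to 3985 ± 299 CPM with shRNA_5bp against 6482 ± 496 CPM with Empty_Vector (-0.70 ± 0.0683), and miR-493-5p to 43.0 ± 8.23 CPM with shRNA_5bp against 118 ± 10.5 CPM with Empty_Vector (-1.48 ± 0.145). In Rian, miR-370-3p had 11521, 11342, 11585 and 11347 CPM with shRNA_5bp, against 17336, 19505, 19547 and 18643 CPM with Empty_Vector (-0.71 ± 0.0523, adjusted p = 2e-12). MiR-1188-5p, less abundant, had 3.05, 5.2, 8.05 and 3.65 CPM with shRNA_5bp, against 18.9, 23.2, 20.7 and 20 CPM with Empty_Vector (-2.09 ± 0.27).

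Within Mirg, close neighbours differed in direction and size. MiR-376b-3p had 248, 270, 262 and 263 CPM with shRNA_5bp, against 99.6, 97.1, 110 and 109 CPM with Empty_Vector (1.33 ± 0.0863, adjusted p = 1.54e-13). Its neighbours miR-376a-3p and miR-376c-3p did not pass the test (0.01 and 0.19, adjusted p = 0.981 and 0.456). MiR-495-3p rose to 2680 ± 363 CPM with shRNA_5bp against 1713 ± 94.1 CPM with Empty_Vector (0.65 ± 0.07, adjusted p = 4.72e-09). MiR-323-3p fell to 1785 ± 80.0 CPM with shRNA_5bp against 3293 ± 167 CPM with Empty_Vector (-0.88 ± 0.056, adjusted p = 1.05e-13), and miR-382-5p fell by 0.52 (SE 0.057).

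**Figure D3:**
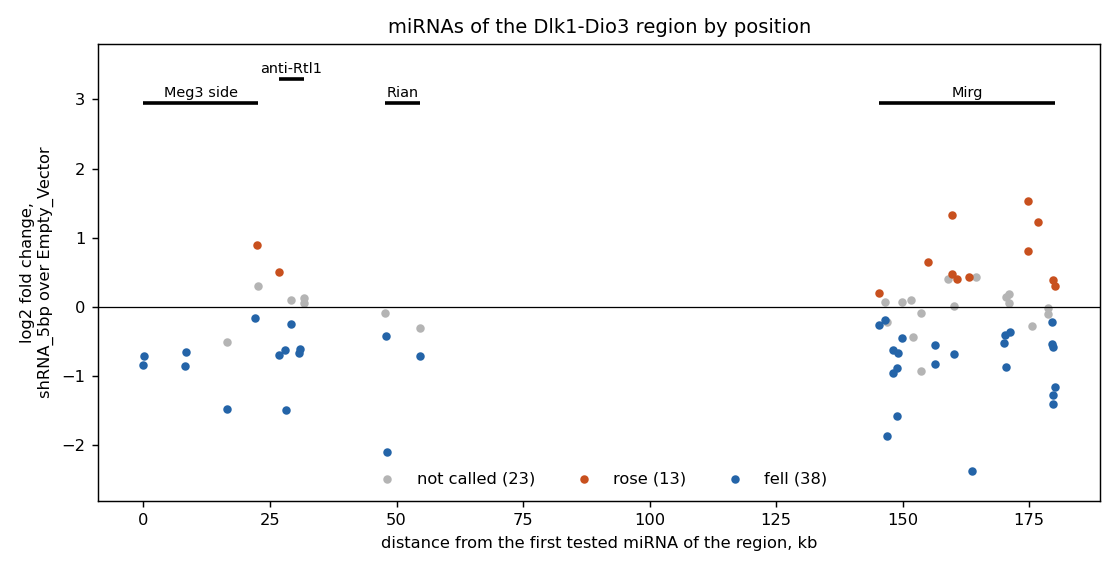
Log2 fold change of shRNA_5bp over Empty_Vector (y axis) for the 74 listed and tested miRNAs of the Dlk1-Dio3 region with a position, by distance from the first tested one (x axis, kb), coloured by call. Members lie at both ends of the 180 kb, with none between 54.6 and 145.4 kb. The Mirg stretch holds 50 of the 74, with 11 of the 13 rises and 23 of the 38 falls.

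In the miR-344 cluster on chromosome 7, all 4 tested arms in chr7:61726256-61742387 rose, with a median of 1.81. MiR-344d-3p is also encoded at 2 other loci nearby. MiR-344d-3p had 1865, 1924, 1656 and 1359 CPM with shRNA_5bp, against 613, 632, 557 and 563 CPM with Empty_Vector (1.52 ± 0.0976, adjusted p = 2.13e-11). MiR-344e-3p rose to 85.1 ± 14.5 CPM with shRNA_5bp against 20 ± 1.05 CPM with Empty_Vector (2.09 ± 0.141, adjusted p = 3.51e-13), and the opposite arm miR-344d-3-5p rose by 2.61 ± 0.163. Family members at greater distance, miR-344-3p and miR-344c-3p, carry another seed and did not pass the test (adjusted p = 0.0723 and 0.313).

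Other large falls were those of miRNAs outside these groups. MiR-760-3p had 594, 566, 567 and 493 CPM with shRNA_5bp, against 1444, 1587, 1564 and 1392 CPM with Empty_Vector (-1.43 ± 0.0726, adjusted p = 6.44e-16). MiR-328-3p, known in brain to target the Alzheimer-linked protease Bace1, had 1470, 2007, 1538 and 1712 CPM with shRNA_5bp, against 3581, 4365, 4361 and 3740 CPM with Empty_Vector (-1.25 ± 0.114, adjusted p = 5.88e-08). The endocrine miR-375-3p fell to 6.20 ± 0.982 CPM with shRNA_5bp against 20.5 ± 1.52 CPM with Empty_Vector, and miR-184-3p to 6.39 ± 3.03 CPM with shRNA_5bp against 17.8 ± 2.64 CPM with Empty_Vector. The muscle miRNA miR-1a-3p fell to 19.9 ± 2.25 CPM with shRNA_5bp against 44.1 ± 6.88 CPM with Empty_Vector (-1.16 ± 0.182, adjusted p = 3.15e-06).

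Whether both arms of a precursor moved together was tested on the ratio of the 5p to the 3p count within each library, which does not depend on how libraries are scaled. Of 119 precursors with both arms tested, 46 changed (38.7%, limma): the ratio rose in 21 and fell in 25. The libraries did not overlap for 48 of the 119 (40.3%) and for 41 of the 46. The arm that was dominant with Empty_Vector gained in 20 and the minor arm in 26. In 13 precursors 1 arm rose and the other fell, in 15 both arms rose, and in 22 both fell.

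The miR-212 precursor shifted toward the 3p arm. The log2 ratio was 2.41, 2.70, 2.72 and 2.56 with shRNA_5bp, against 3.98, 4.48, 4.06 and 3.97 with Empty_Vector, or about 6.05 counts of 5p per count of 3p with shRNA_5bp and 17.4 with Empty_Vector (-1.53 ± 0.156, adjusted p = 5.37e-09). The miR-132 precursor on the same transcript moved the same way by less (-0.49 ± 0.0793, adjusted p = 1.07e-05). In miR-431 the ratio was 3.36 with shRNA_5bp and 1.43 with Empty_Vector (1.23 ± 0.176, adjusted p = 2.53e-06), as the 5p arm rose and the 3p arm fell. In miR-139, named after its values were seen, both arms fell but the 3p arm fell further, and the ratio was 21.5 with shRNA_5bp and 9.23 with Empty_Vector (1.22 ± 0.122, adjusted p = 5.37e-09). MiR-139-3p itself was at 87.5 ± 13.2 CPM with shRNA_5bp and 243 ± 26.7 CPM with Empty_Vector.

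By the mean log2 ratio of each group, dominance changed sides in 5 precursors. In 4 of them the ratio passed the test: miR-339, miR-340, miR-485 and miR-664, named as the members of this small count. That test was of a change in ratio, and the change of side itself was not tested. Single libraries of miR-485 with shRNA_5bp lay on both sides, with log2 ratios of 0.093, -0.23, 0.23 and -0.37. For miR-339, 1 Empty_Vector library was already on the 5p side (0.079). MiR-340 had 530 ± 6.09 CPM of 5p and 495 ± 27 CPM of 3p with shRNA_5bp, against 433 ± 49.4 CPM of 5p and 588 ± 18.3 CPM of 3p with Empty_Vector. The largest ratio changes rested on few counts. The miR-3068 ratio (-3.77 ± 0.646) had 1 shRNA_5bp library with 0 counts of the 5p arm, and the miR-487b ratio (-1.86 ± 0.453) had a library with 2. The lowest count of either arm in a shRNA_5bp library was 3 for miR-1298 and miR-410 and 6 for miR-130b. It was 5 for miR-339 and 7 for miR-664, beside 442 for miR-340 and 295 for miR-485.

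**Figure D4:**
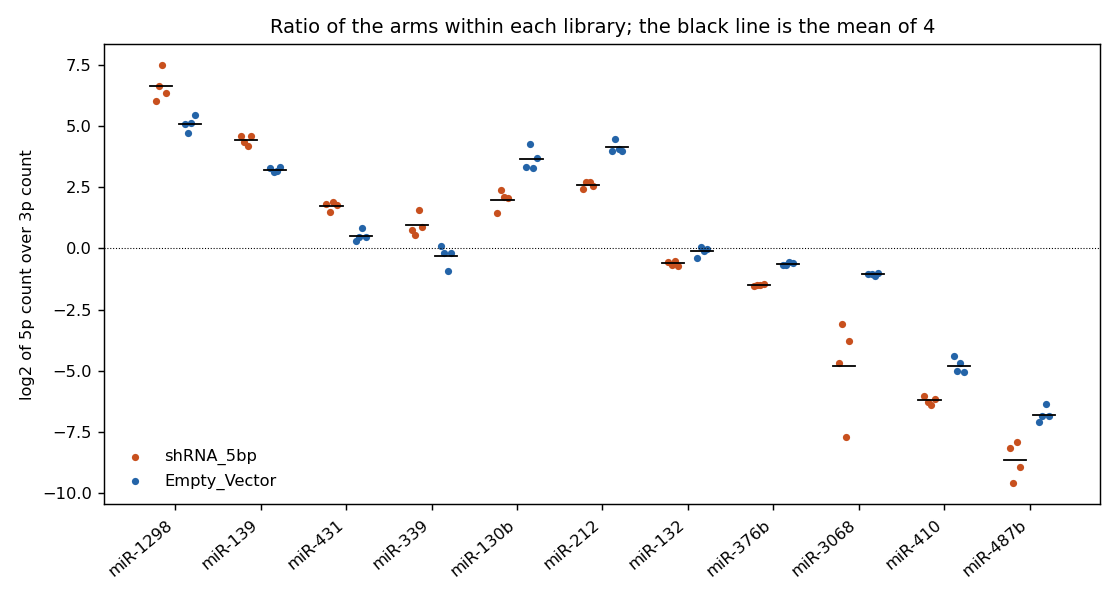
Log2 ratio of 5p to 3p counts within each library (y axis) for 11 precursors, with 4 shRNA_5bp libraries left and 4 Empty_Vector libraries right in each pair, and black lines at means. Ratios of miR-1298, miR-139, miR-431 and miR-339 were higher with shRNA_5bp and those of the other 7 lower, without overlap. MiR-132, miR-139 and miR-376b were added after their values were seen.

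The largest rises were mostly those of names without an arm suffix, many of which are entries of uncertain status. Of 47 such names tested 27 rose and 6 fell, with a median of 1.04 beside 0.06 for all. They made up 22 of the 29 miRNAs that rose more than 4-fold, and 19 of the 29 had under 10 CPM with Empty_Vector. MiR-690 had 1127, 546, 1163 and 711 CPM with shRNA_5bp, against 41.0, 32.9, 28.3 and 49.4 CPM with Empty_Vector (4.50 ± 0.264, adjusted p = 3.74e-09). MiR-6538 had 994, 466, 1007 and 689 CPM with shRNA_5bp, against 44.2, 32.9, 45.1 and 65.1 CPM with Empty_Vector (4.05 ± 0.288, adjusted p = 2.93e-08). MiR-1195 had 205, 94.7, 162 and 138 CPM with shRNA_5bp, against 4.96, 4.99, 2.39 and 8.12 CPM with Empty_Vector. In each of these 3, the second shRNA_5bp library, the deepest, was the lowest of its group. MiR-696 was at 105 ± 36.2 CPM with shRNA_5bp and at 1.59 ± 1.03 CPM with Empty_Vector, near the floor of 3 counts. MiR-714 was at 23.8 ± 8.96 CPM with shRNA_5bp and at 0.354 ± 0.327 CPM with Empty_Vector, and 1 Empty_Vector library had 0 counts, so no fold is given.

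Summed over the 29 miRNAs, the share of counts was 0.553, 0.278, 0.508 and 0.394% in the shRNA_5bp libraries, whose totals were 0.946, 2.50, 0.832 and 1.46 M. It was 0.0976 to 0.112% with shRNA_2bp, which had totals of 1.18 to 2.10 M, 0.0302 to 0.0368% with shRNA, and 0.0229 to 0.0358% with Empty_Vector. Because the 29 were chosen for being high in these shRNA_5bp libraries, the order of the groups is no result. Within shRNA_5bp the share was highest in the 2 shallowest libraries, and the part of depth in it was not tested beyond thinning, in which 23 of the names without an arm suffix rose and 3 fell. Of the 29, 23 had a RefSeq sequence, and 7 of these were found letter for letter in a transcript that GENCODE M21 annotates as a small RNA other than a miRNA. MiR-5121 matched the small nucleolar RNA Snord33 and miR-6481 the mitochondrial transfer RNA mt-Tf. MiR-3535 matched a further small nucleolar RNA, miR-3068-3p the transcript Mir3068, itself annotated as one, and miR-706, miR-3470b and miR-3473b miscellaneous small RNAs. The last 3 sequences also occur in 221, 569 and 359 other transcripts, so their match to a small RNA is not specific. Among all 427 tested miRNAs with a sequence there were 15 such matches.

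**Figure D5:**
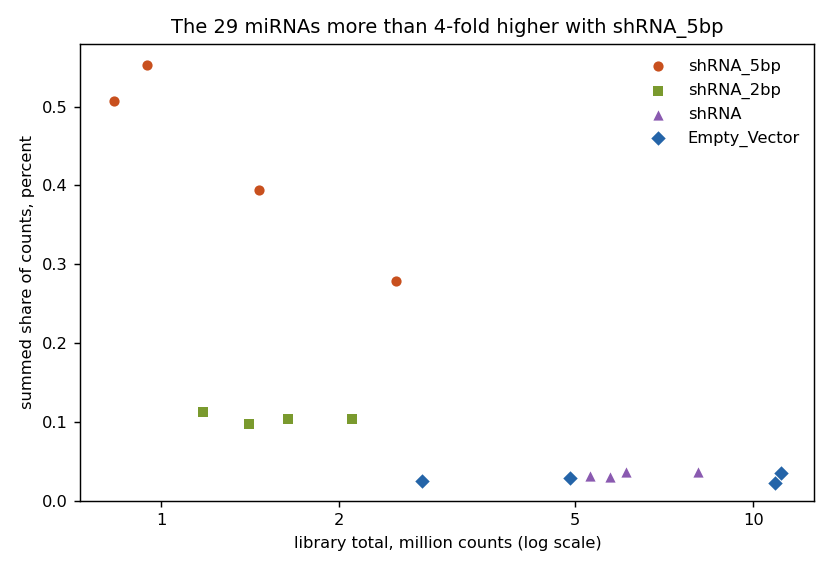
Summed share of library counts (y axis, percent) held by the 29 miRNAs more than 4-fold higher with shRNA_5bp, against library total (x axis, M counts, log scale), with 1 point per library. The 4 shRNA_5bp libraries range from 0.278 to 0.553%, and the shRNA_2bp libraries from 0.0976 to 0.112%. That the shRNA_5bp libraries lie highest was set by how the 29 were chosen.

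Markers of other cells were examined because cultures hold glia and fibroblasts. Of 6 astroglia-leaning miRNAs 5 rose and 0 fell, and their summed level was 2780 to 3072 CPM with shRNA_5bp and 2227 to 2554 CPM with Empty_Vector. The count of rises was 3 without the third Empty_Vector library and 2 with no filter on low counts. MiR-21a-5p of this list rose by 0.29 ± 0.0703, and 3 of its 5 rises were members of the miR-23/27/24 clusters. Of 7 vessel and fibroblast miRNAs 5 rose and 0 fell (median 1.22), but 2 rose with libraries thinned to equal depth or with a filter of 10 CPM. Their summed level was 1145 to 1367 CPM with shRNA_5bp and 724 to 825 CPM with Empty_Vector, most of it the endothelial miR-126a-3p (1099 ± 49.0 CPM with shRNA_5bp and 735 ± 52.0 CPM with Empty_Vector, 0.58 ± 0.0632, adjusted p = 5.72e-09). The fibroblast miR-199a-3p, whose counts are identical to those of miR-199b-3p, had 10.2, 16.7, 72.5 and 24.3 CPM with shRNA_5bp, against 10.8, 7.59, 7.98 and 6.96 CPM with Empty_Vector. Its change was 1.78 ± 0.461 (adjusted p = 0.00383) and 1.12 without the third shRNA_5bp library. That library was also the highest for miR-143-3p, at 156 CPM beside 25.2 to 57.1 CPM in the other 3. Of the remaining lists, 0 of 2 oligodendrocyte and 0 of 2 erythroid miRNAs passed the test by edgeR, 0 had an unadjusted p below 0.05, and 0 passed by DESeq2. The 2 erythroid names have identical counts and stand for 1 measurement, which rose with library totals alone. With no filter on low counts, 1 oligodendrocyte miRNA fell. In the microglia list 1 of 2 rose, miR-146a-5p (0.46 ± 0.136, adjusted p = 0.00429), a call lost after thinning, with no filter, or without Empty_Vector 2 or shRNA_5bp 4. In the muscle list 1 of 2 fell, and in the Sfmbt2 cluster 1 of 5 rose. The part of other cell types in the rises was not tested.

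Differences between hairpins were tested directly, since comparisons with the shared Empty_Vector libraries are not independent. ShRNA_5bp differed from shRNA in 256 miRNAs (53.0%), being higher in 137 (28.4%) and lower in 119 (24.6%). That split was 94 to 185 with no filter on low counts, and the higher calls fell to between 90 and 97 without Empty_Vector 2 or 3, shRNA 1, 2 or 3, or shRNA_5bp 4. From shRNA_2bp it differed in 288 (59.6%), being higher in 178 (36.9%) and lower in 110 (22.8%). This split was 124 to 126 with the 2 groups alone. Its higher calls fell to between 140 and 148 without Empty_Vector 2 or 3, shRNA 1, 2 or 3, or shRNA_5bp 4. The miR-7 pair was far above shRNA_2bp, by 2.39 (miR-7a-5p) and 2.38 (miR-7b-5p) on the log2 scale (adjusted p = 9.9e-23 and 1.11e-22). Against the unmutated shRNA the pair split, with miR-7a-5p higher by 0.40 (adjusted p = 2.24e-06) and miR-7b-5p lower by 0.59 (adjusted p = 2.6e-09). MiR-7a-5p averaged 25828 CPM with shRNA_5bp, 19610 with shRNA and 4915 with shRNA_2bp, and 6735 with Empty_Vector.

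MiR-149-5p, miR-344d-3p and let-7a-5p differed from both other hairpins in the same direction as from Empty_Vector. MiR-149-5p averaged 2593 CPM with shRNA_5bp, 1204 with shRNA and 880 with shRNA_2bp, and 1046 with Empty_Vector, a difference of 1.11 from shRNA and 1.56 from shRNA_2bp (adjusted p = 7.37e-15 and 7.7e-19). MiR-344d-3p exceeded both as well, by 1.20 and 1.77 (adjusted p = 9.83e-10 and 2.02e-12). Let-7a-5p was lower than with either, by -0.54 and -0.65 (adjusted p = 1.36e-07 and 3.88e-09).

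MiR-760-3p and miR-376b-3p lay between the levels of the other hairpins. MiR-760-3p averaged 555 CPM with shRNA_5bp, 1713 with shRNA and 193 with shRNA_2bp (differences of -1.63 and 1.51). MiR-376b-3p averaged 261 CPM with shRNA_5bp, 126 with shRNA and 487 with shRNA_2bp (1.05 and -0.90). MiR-495-3p was above both, by 0.29 over shRNA and 2.36 over shRNA_2bp. For miR-128-3p, shRNA_5bp was below shRNA (-0.44, adjusted p = 1.36e-06), while its difference from shRNA_2bp was 0.02 (adjusted p = 0.841) at mean levels of 243455 and 240704 CPM. For miR-370-3p the difference from shRNA was -0.01 (adjusted p = 0.895) and that from shRNA_2bp 0.77 (adjusted p = 3.66e-13). The largest differences in which shRNA_5bp was lower were miR-760-3p, miR-6944-3p, miR-3102-5p.2-5p and both arms of miR-877 against shRNA, and miR-34c-3p, miR-615-3p, miR-455-3p, miR-378c and miR-34b-3p against shRNA_2bp. MiR-378c, for example, averaged 43.6 CPM with shRNA_5bp and 145 CPM with shRNA_2bp (-1.71, adjusted p = 1.68e-12), and 43.0 CPM with Empty_Vector.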

How the data were processed

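Small RNA libraries were made from 100 ng of total RNA with 15 PCR cycles and size selection, per the labels' protocols. The submitters' processing notes name bcl2fastq 2.20.0.422, Trim Galore 0.6.0, cutadapt 1.15, Bowtie 1.1.1, edgeR and GRCm38.p6, with no role for each. The deposited values are raw counts of reads per mature miRNA. How the authors treated reads matching several miRNAs is not given in the sources used here, and 14 tested names had counts identical to another name. Molecular identifiers are not mentioned, so floors cover counting error only.

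All 16 libraries were fitted together in edgeR 4.0.16 (R 4.3.3) with 1 coefficient per group, TMM scaling, filterByExpr and robust quasi-likelihood F tests, adjusted by Benjamini-Hochberg over 483 miRNAs at 0.05 ("rose", "fell", "changed"). The tested miRNAs held at least 99.9% of each library. Levels are CPM on TMM-scaled totals, and ± after a log2 change is its SE. Arm ratios were tested with limma 3.58.1 on log2 of (5p + 0.5)/(3p + 0.5), and single values by exact permutation over libraries in SciPy 1.17.1. The tests were also run on counts simulated with means and spreads from the fit to these data. The outcome of that run is not reported here. DESeq2 1.42.0, other scalings and filters, thinning to the smallest total (831859 counts), a replicate block, and leaving out each library were alternatives.

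Named were the 12 largest rises and falls of at least 10 CPM with no overlap, the 10 most abundant miRNAs, up to 4 changed members per list, their opposite arms, 8 arm ratios, and 5 differences each way per other hairpin; a few others were named after their values were seen. The members and lists were chosen with earlier results of these data known. Mature sequences and positions are RefSeq's on GRCm38.p6, the authors' build. Same-numbered libraries of the 2 groups were not paired.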

Additional observations from a re-analysis of the deposited data

Results flagged for a closer look

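In 284 groups of 4 libraries examined, 1 library stood apart from the other 3 in 15, with a gap to its nearest neighbour above Dixon's critical value as a share of the group's range. Chance flags about 1 in 20 groups, and no explanation was tested.

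With shRNA_5bp, let-7i-3p had a highest library of 15.0 CPM and a nearest of 10.2 (gap 0.846 of the range). MiR-21a-5p had one of 1006 CPM beside 886 (0.835), miR-27b-3p one of 2223 beside 2096 (0.885), and miR-30d-5p one of 10116 beside 9335 (0.853). MiR-431-5p had a lowest library of 156 CPM beside 174 (0.838).

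With Empty_Vector, high libraries were those of miR-128-3p (449163 CPM beside 421055, gap 0.907), miR-129-1-3p (53 beside 32.9, 0.910) and miR-23a-3p (61.1 beside 43.1, 0.831). Further high ones were those of miR-3470a (8.21 beside 3.02, 0.959), miR-7a-1-3p (22.1 beside 13.9, 0.870) and miR-877-5p (39.0 beside 31.1, 0.863). Low libraries were those of let-7i-5p (40352 CPM beside 43428, gap 0.899) and miR-22-5p (92.6 beside 96.0, 0.868). MiR-486a-5p and miR-486b-5p, which have identical counts, had a low library of 191 CPM beside 209 (0.848 for both names).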

How the results depend on the processing

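Of 102 named miRNAs that changed, 78 kept direction and call in every alternative run in which they were tested. Over the 132 named miRNAs, 2988 of 3138 alternative values kept their call, and also their direction where either run passed the test. Of the rest, 60 newly passed, 79 no longer passed and 11 changed sign. With no filter on low counts, signs turned for let-7g-5p (-0.0038), let-7i-5p (-0.22), miR-29a-3p (-0.22), miR-99a-5p (-0.084), miR-26a-5p (-0.18), miR-9-5p (-0.028) and miR-9-3p (-0.20). With library totals alone, they turned for miR-127-3p (0.0046), miR-212-5p (0.035), miR-99b-3p (0.22) and let-7f-5p (0.13), and the count of falls was 81. With no filter the falls of let-7i-5p, miR-29a-3p, miR-26a-5p and miR-9-3p passed the test, as did the rises of miR-99b-3p and let-7f-5p with library totals alone. The cause was not tested. Counts of changed miRNAs were 276 with DESeq2 size factors, 277 with the DESeq2 test, 266 with the 2 groups alone, and 221 (124 rises, 97 falls) of 371 tested after thinning. A fit with the replicate block gave 294, although same-numbered libraries correlated at only -0.0615 to 0.243 (2 of 8 best with their own number), so the numbers show no pairing. Leaving out single libraries gave 261 to 282 changed miRNAs. It also gave miR-128-3p share differences of -13.37 to -11.99 points and total differences of -7.53 to -4.74 M counts, each at exact permutation p = 0.0571, the smallest that 3 against 4 allow. Against shRNA 137 miRNAs were higher, but only 90 to 97 without Empty_Vector 2 or 3, shRNA 1, 2 or 3, or shRNA_5bp 4. Against shRNA_2bp 178 were higher, but 140 to 148 without any of the same libraries and 124 with the 2 groups alone. Depth limits scarce names: 3 counts in the smallest shRNA_5bp library are 3.61 CPM.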

Other observations

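A cluster on the X chromosome holding miR-500, miR-501, miR-362, miR-188 and miR-532 had 6 tested arms with a position, of which 4 rose and 1 fell (median 0.82). MiR-500-3p had 13.2, 11.5, 8.05 and 14.6 CPM with shRNA_5bp, against 2.70, 3.12, 2.79 and 3.29 CPM with Empty_Vector (1.98 ± 0.265, adjusted p = 2.2e-07). MiR-501-3p, with the same seed, was the fall, at 199 ± 13.3 CPM with shRNA_5bp and 292 ± 34.2 CPM with Empty_Vector (-0.56 ± 0.0942, adjusted p = 9.78e-06). In the chromosome 13 cluster of let-7a, let-7d and let-7f, 0 of 6 tested arms rose and 4 fell (median -0.40), although let-7f-5p is also made elsewhere.

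Of 12 seed families with at least 3 tested members that have a RefSeq sequence, 3 had all of those members changed in the same direction and 3 had members in both directions. Members without a sequence were left out, among them miR-30d-5p, which fell while the 4 counted members of the miR-30 seed rose. Median GC content of the mature sequence was 57.1% for the 23 miRNAs with a sequence that were more than 4-fold higher, 45.5% for the 114 that rose by less, 54.5% for the 119 that fell, and 47.8% for the 171 not called, beside 50% for all 427. These are descriptions without a test, and members of a family share sequence.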
